A study of Mus musculus with 4 samples.

Results

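Basal cells are the stem cells of the pseudostratified airway, and they carry a set of identity genes besides their keratins. The expression of 8 such genes was followed here in RNA from sorted mouse lung cells: Trp63, Dapl1, Ngfr, Icam1, Snai2, Cdh3, Col17a1 and Bcam. They were chosen by gene symbol, all 8 were found once each among 23990 genes, and 6 of them were abundant enough to be tested among 12040 genes. In outline, Trp63 and Dapl1 differed between the labels in one direction and Icam1 in the other. Bcam and Cdh3 were expressed in every library without a difference past the test. Snai2, Col17a1 and Ngfr were low.

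The gene Trp63 encodes p63, a relative of p53 and the master regulator of stratified and basal epithelia, which switches on genes for anchorage to the basement membrane. Basal cells sit on that membrane through hemidesmosomes, in which type XVII collagen (Col17a1) joins integrin and intermediate filaments to laminin outside the cell. P-cadherin (Cdh3) joins neighbouring cells, Bcam is a laminin receptor, Ngfr is the p75 neurotrophin receptor used to sort basal cells, and Snai2 is a zinc finger repressor of the Snail family. Dapl1 is a small protein related to death-associated protein. Icam1, an adhesion molecule bound by leukocyte integrins, serves as a basal cell marker but is also found on alveolar type 1 (AT1) cells, the flat cells of gas exchange, and on endothelium.

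The 4 libraries, 2 per label, came from mice of mixed B6 and 129 background aged 3 or 4 days after birth, described as littermates. All groups carry Scnn1a-Cre, so recombination follows the promoter of an epithelial sodium channel gene and not a marker of AT1 cells alone. The labels give libraries labelled Sox2 the genotype Scnn1a-Cre; Rosa[Sox2/+], with a Cre-dependent transgene for the airway transcription factor Sox2, and libraries labelled control Scnn1a-Cre; Rosa[mTmG/+], a membrane reporter. The labels name dead-cell exclusion and no surface marker for the sort, and do not say whether a group's libraries came from different mice. The p-values therefore reflect the spread among these libraries, which may be technical.

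Sox2 itself went against the labels and their genotypes, at 1.41 and 1.99 FPKM (fragments per kilobase of transcript, scaled to sequencing depth) in the Sox2-labelled libraries and 302 and 477 FPKM in the control-labelled ones. Transgene and endogenous Sox2 share 1 value in the tables. Whether the labels were exchanged was not tested. Directions below follow the labels as deposited, and "control-labelled" therefore means the libraries in which Sox2 was abundant. Ager, the receptor most used to mark AT1 cells, was detected in all 4 libraries at 157 to 3737 FPKM, and so was Sftpc, the main surfactant protein of alveolar type 2 (AT2) cells, at 796 to 21175 FPKM. The summed level of 6 pan-epithelial genes was 867 to 933 FPKM in the Sox2-labelled libraries and 2098 to 2134 FPKM in the control-labelled ones. In the test described below, 4 of these 6 genes were lower in the Sox2-labelled libraries and 2 did not pass. In such bulk samples, fewer cells of a type and less RNA per cell cannot be told apart.

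Levels of the 8 genes spanned more than 4 orders of magnitude, which FPKM allows to be compared because it is per length. Bcam was the most abundant in each of the 4 libraries and stood at or above the 98.9th percentile of tested genes. Icam1 followed it in the Sox2-labelled libraries. In the control-labelled ones, the second place went to Icam1 in replicate 1 and to Dapl1 in replicate 2. Ngfr stayed under 0.25 FPKM throughout.

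**Figure D1:**
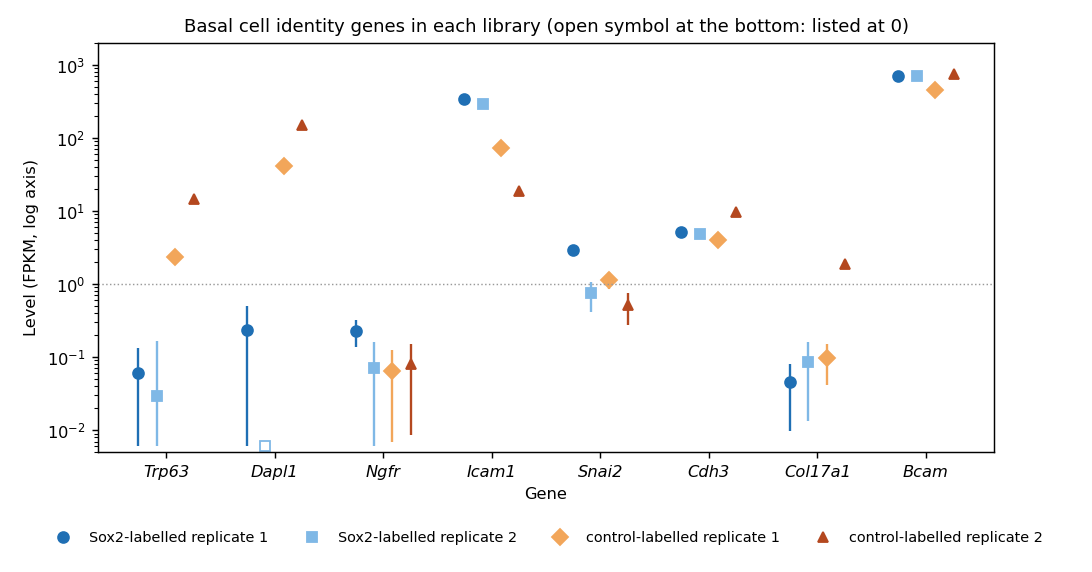
Level of each gene (FPKM, log axis) in each of the 4 libraries, with the deposited lower and upper bound as a vertical line; the dotted line marks 1 FPKM and the open square Dapl1 listed at 0. Trp63 and Dapl1 lie above 2 FPKM only in the control-labelled libraries, Icam1 is highest in both Sox2-labelled libraries, and the groups overlap for Bcam, Cdh3, Snai2 and Ngfr.

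Testing used limma on log2(FPKM + 1) over the 12040 genes whose mean reached 1 FPKM, with Benjamini-Hochberg adjustment and a threshold of 0.05. Differences are labelled Sox2 minus labelled control. Of the 6 tested identity genes, 1 was higher (Icam1), 2 were lower (Trp63 and Dapl1) and 3 did not pass. Over all tested genes 12.3% passed, 4.2% higher and 8.11% lower, and the median difference was -0.29. The median of the 6 was -0.0081. Trp63 and Dapl1 reached the mean of 1 FPKM only through the libraries in which they were high, so their count among 6 supports nothing about the set. The groups did not overlap for the same 3 genes, against 58.1% of all tested genes (15.7% higher and 42.5% lower in the Sox2-labelled libraries), and nor did they for the untested Col17a1.

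Trp63, the regulator of basal identity, was near the floor in the Sox2-labelled libraries and present in the control-labelled ones. Its level was 0.0605 and 0.0293 FPKM in the former, with deposited bounds that include 0, and 2.38 and 14.4 FPKM in the latter. The groups did not overlap, and control-labelled replicate 2 was 6.08-fold above replicate 1. The log2 difference was -2.79 (SE 0.60, limma adjusted p = 0.0145). In rank this took Trp63 from below the 1st percentile of tested genes to the 13.6th and 68.1st. The call was lost under median-of-ratios rescaling (limma adjusted p = 0.0638), quantile normalization (0.0744), and without Sox2-labelled replicate 1 (0.0779) or 2 (0.126). Without control-labelled replicate 2 the difference was -1.69, in a fit whose filter still used the mean of all 4 libraries. The spread within a label then came only from the Sox2-labelled libraries, both near the floor. With a pseudocount of 0.1 in place of 1, which shrinks low genes less, it was -5.38.

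Trp63 lies on chromosome 16 at 25683765 to 25892088 of mm10, on the plus strand. The authors' tables give it 2 transcription start groups but 1 value. The long form with the transactivation domain and the ΔN form typical of basal cells could therefore not be told apart. Its relative Trp53, the p53 gene, was lower as well. It was 27.6 and 12.1 FPKM in the Sox2-labelled libraries and 73.2 and 48.6 FPKM in the control-labelled ones (log2 difference -1.65, SE 0.41, limma adjusted p = 0.0259). That call was lost under quantile normalization (limma adjusted p = 0.0522) and without Sox2-labelled replicate 2 (log2 difference -1.08, limma adjusted p = 0.270). Trp73 stayed between 0.268 and 0.689 FPKM and was not tested. The other 4 tested genes of the p53 family list, among them the ubiquitin ligase gene Mdm2 (log2 difference 0.033), did not pass.

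Genes known as p63 targets went in both directions. Over all tested genes, the background for this and the later lists, 8.11% were lower and 4.2% higher, with a median difference of -0.29. Of 15 p63 targets tested, 5 were lower, 1 was higher and 9 did not pass, with a median difference of -0.37. Under median-of-ratios rescaling and under quantile normalization the balance turned to 3 higher and 2 lower. With 1 library left out, 0 to 4 were higher and 1 to 5 lower, the count lower being 1 without either Sox2-labelled replicate and the count higher 4 without control-labelled replicate 1. The largest was that of Itgb4, the integrin chain of hemidesmosomes, at 1.79 and 1.45 FPKM against 14.8 and 46.6 FPKM (log2 difference -3.39, SE 0.50, limma adjusted p = 0.00237). Perp, a membrane protein of desmosomes, stood at 19.0 and 19.9 FPKM against 59.8 and 218 FPKM (log2 difference -2.49, SE 0.50, limma adjusted p = 0.0101). Both were higher in each library with detectable Trp63, and both were about 3-fold or more higher in control-labelled replicate 2 than in replicate 1 (3.16 for Itgb4, 3.65 for Perp). The call of Perp was lost under median-of-ratios rescaling (limma adjusted p = 0.0861), quantile normalization (0.0751), and without Sox2-labelled replicate 1 (0.0521) or 2 (0.0822), as it was under scaling to the total without small RNA genes, added after the values were seen (0.0530), and its difference was -1.57 without control-labelled replicate 2. The higher gene was Itga3, an integrin chain for laminin, at 106 and 120.0 FPKM against 37.8 and 32.9 FPKM (log2 difference 1.65, SE 0.30, limma adjusted p = 0.00695). Dropping Sox2-labelled replicate 2 ended the call of Itga3 (limma adjusted p = 0.0885).

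By the distance between centred log2(FPKM + 1) values over the 4 libraries, the genes most like Trp63 were Kazald1 (distance 0.10), Atg9b (0.13) and Atp10b (0.24). Atp10b, for example, stood at 0.0308 and 0.0192 FPKM in the Sox2-labelled libraries and at 1.89 and 11.6 FPKM in the control-labelled ones. The measure rests on 4 libraries and describes levels only.

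Dapl1 had the largest difference of the 8 genes. It stood at 0.234 FPKM in Sox2-labelled replicate 1, was listed at 0 in replicate 2, and reached 41.6 and 150.0 FPKM in the control-labelled libraries. The groups did not overlap, and in the library with the most Dapl1 it ranked at the 97.0th percentile of tested genes. The log2 difference was -6.17 (SE 0.53, limma adjusted p = 2.11e-04). It ranged from -5.26 to -7.09 with 1 library left out, and the call held in each of those fits. The genes most like it over the 4 libraries were Sox21 (distance 0.90), Aldh3a1 (1.16) and Krt4 (1.20). Sox21 stood at 0.517 and 0.125 FPKM against 27.0 and 91.0 FPKM.

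Dapl1 is a gene of 4 exons on chromosome 2 at 59484653 to 59505020 of mm10, plus strand. Promoter sequences from the RefSeq table (build GRCm38.p6) were matched for 5 of the 8 genes: Dapl1, Ngfr, Icam1, Col17a1 and Bcam. The 250 bases before the listed start are shown for 3 of them, since Dapl1 and Icam1 differed in opposite directions and Bcam did not differ past the test. Each is written 5′ to 3′ on the gene's strand, at chr2:59484403-59484652 (plus strand), chr9:21015690-21015939 (plus strand) and chr7:19770533-19770782 (minus strand). Capitals mark matches to the motifs searched.
Dapl1: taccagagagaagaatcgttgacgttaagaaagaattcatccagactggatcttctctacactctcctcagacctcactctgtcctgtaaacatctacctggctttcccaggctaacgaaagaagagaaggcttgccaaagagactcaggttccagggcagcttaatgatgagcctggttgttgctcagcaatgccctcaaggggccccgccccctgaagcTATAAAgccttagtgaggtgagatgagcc
Icam1: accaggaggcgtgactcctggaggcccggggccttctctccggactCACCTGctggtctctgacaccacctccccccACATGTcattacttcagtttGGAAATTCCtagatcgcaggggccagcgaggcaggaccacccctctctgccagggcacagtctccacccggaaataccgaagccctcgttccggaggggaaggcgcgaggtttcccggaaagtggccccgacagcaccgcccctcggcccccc
Bcam: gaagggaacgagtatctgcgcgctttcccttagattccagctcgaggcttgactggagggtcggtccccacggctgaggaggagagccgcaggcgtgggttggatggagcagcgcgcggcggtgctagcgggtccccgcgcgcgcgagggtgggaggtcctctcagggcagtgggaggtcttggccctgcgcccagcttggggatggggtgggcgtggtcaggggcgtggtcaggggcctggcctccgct

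The motifs, searched on both strands in the 250 bases, were TATAAA (as in TATA boxes), GGAAATTCC (an NF-kB site), CAGGTG (the E-box of Snail factors), ACAAT (the core of SOX sites) and ACATGT (a core of p63 sites). They were chosen with these sequences in view, and no matches overlapped. Dapl1 held 1 match, a TATAAA whose first base lies 29 bases before the start. A TATAAA on the gene's strand at 40 to 20 bases before the start was found in 1.99% of 32851 promoters of the same length. Icam1 held GGAAATTCC, found in 0.286% of promoters, with CAGGTG on the opposite strand (17.2%) and ACATGT (4.58%). The TATAAA of Icam1 lies outside the window, at base 14 counted from the table's start site. The GENCODE gene annotation places the start of Icam1 45 bases further downstream, so this TATAAA lies before that start. Col17a1 held 2 TATAAA matches, at 140 and 91 bases before the start, a word found on either strand in 12.4% of promoters. Bcam and Ngfr held no match, and ACAAT, found in 27.7% of promoters, was not among the letters of any of the 5. In base composition Bcam and Ngfr were at 70.0% and 70.4% G and C, Icam1 at 65.2%, Dapl1 at 50.0% and Col17a1 at 46.0%, against a median of 52.4% over all promoters. A match describes the sequence and does not show that a factor binds there.

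Snai2 was low, and its spread within a label was as wide as between labels. It stood at 2.92 and 0.744 FPKM in the Sox2-labelled libraries and at 1.15 and 0.515 FPKM in the control-labelled ones. The groups overlapped, with Sox2-labelled replicate 1 above the other 3. The log2 difference of 0.53 (SE 0.46, 95% interval -0.49 to 1.55, limma adjusted p = 0.483) did not pass, and it was -0.050 without that library. Snai2 is a gene of 3 exons on chromosome 16 at 14705859 to 14709382 of mm10, plus strand. The order of the libraries was that of the summed mesenchymal markers, which were 250 and 80.2 FPKM in the Sox2-labelled libraries and 109 and 25.8 FPKM in the control-labelled ones. All 7 of those markers were in the tables, 6 were tested and none passed. Pericyte and smooth muscle markers had the same order, at 50.5, 24.3, 28.1 and 14.0 FPKM. Of all tested genes 7.89% had this order, and the part of these cells in the level of Snai2 was not tested.

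Other repressors of the same kind, which are best known from epithelial-mesenchymal transition, split. Of 3 tested members of the Snail, Zeb and Twist list 1 was higher, 1 was lower and 1 did not pass. Twist1, a basic helix-loop-helix factor of mesenchyme, stood at 0.330 and 0.179 FPKM in the Sox2-labelled libraries and at 27.8 and 31.0 FPKM in the control-labelled ones. Its log2 difference of -4.60 (SE 0.38, limma adjusted p = 1.82e-04) passed with no overlap between the groups. Twist1 reached the mean of 1 FPKM only through the control-labelled libraries, so its count among 3 supports nothing about the list. Twist2 stayed at or below 0.423 FPKM. Snai1 was 10.2 and 7.53 FPKM against 2.33 and 0.710 FPKM (log2 difference 2.03, SE 0.44, limma adjusted p = 0.0145). Snai1 did not pass without Sox2-labelled replicate 1 (limma adjusted p = 0.115) or 2 (0.107) and without control-labelled replicate 2 (0.0562). Snai3, Zeb1 and Twist2 were not tested, and Zeb2 did not pass.

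Of the anchorage and adhesion genes, Col17a1 was seen above the floor in 1 library. It stood at 0.0452 and 0.0862 FPKM in the Sox2-labelled libraries, at 0.0965 FPKM in control-labelled replicate 1 and at 1.86 FPKM in control-labelled replicate 2. The deposited bounds of the last value, 1.58 to 2.14 FPKM, lay clear of the other 3, whose bounds overlap each other. With a mean of 0.522 FPKM it was not tested, and with no filter on low values its log2 difference of -0.73 (SE 0.45) had a limma adjusted p of 0.420. Col17a1 lies on chromosome 19 at 47646341 to 47692042 of mm10 on the minus strand, with up to 54 exons.

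Its partners in the hemidesmosome did not share one direction. Of 8 tested genes of hemidesmosomes and laminin-332, the laminin they bind, 3 were lower, 1 was higher and 4 did not pass, and the median difference was -0.19. Under median-of-ratios rescaling and quantile normalization 2 were higher and 1 was lower, and without either Sox2-labelled replicate 1 was lower. Besides Itgb4, Dst, the plakin that links keratin filaments, was lower at 3.37 and 5.26 FPKM against 15.4 and 19.2 FPKM (log2 difference -1.80, SE 0.38, limma adjusted p = 0.0125). Dst lost its call under median-of-ratios rescaling (limma adjusted p = 0.0528), quantile normalization (0.0549), and without Sox2-labelled replicate 1 (0.103) or 2 (0.0863). The laminin chain Lama3 was higher at 100.1 and 112 FPKM against 27.2 and 4.47 FPKM (log2 difference 3.10, SE 0.59, limma adjusted p = 0.00844). Lama3 lost its call under the robust variance model (limma adjusted p = 0.163) and without Sox2-labelled replicate 2 (0.0871), and its difference was 1.92 without control-labelled replicate 2. The third gene on the lower side was Itga6, the integrin partner of Itgb4 (log2 difference -1.40, limma adjusted p = 0.0469). It lost its call in 8 of the 12 alternatives besides the one with no filter, at limma adjusted p-values of 0.0513 to 0.372. The integrins also count among the p63 targets and the basal cell genes.

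Cdh3 was expressed at a similar level in 3 libraries. It stood at 5.14 and 4.79 FPKM in the Sox2-labelled libraries, at 3.96 FPKM in control-labelled replicate 1 and at 9.76 FPKM in replicate 2. The groups overlapped because the control-labelled libraries lay on either side of the Sox2-labelled ones. The log2 difference of -0.29 (SE 0.44, 95% interval -1.27 to 0.68, limma adjusted p = 0.711) was close to the median of all tested genes, and without control-labelled replicate 2 it was 0.27. E-cadherin (Cdh1), the main epithelial cadherin, was 141 to 227 FPKM over the 4 libraries, and its difference of -0.44 did not pass either. Of 7 tested cadherins and catenins, 1 was lower, 1 was higher and 5 did not pass. The lower was Ctnnd1, p120 catenin, which holds cadherins at the membrane, at 82.1 and 71.2 FPKM against 184 and 153 FPKM (log2 difference -1.12, SE 0.30, limma adjusted p = 0.0363). The higher was Cdh4, R-cadherin, at 2.19 and 3.23 FPKM against 0.604 and 0.313 FPKM (log2 difference 1.34, SE 0.39, limma adjusted p = 0.0477). Both calls were lost without Sox2-labelled replicate 1 (limma adjusted p = 0.0942 and 0.122) or 2 (0.237 and 0.292). That of Ctnnd1 was also lost without control-labelled replicate 1 (0.0919), under median-of-ratios rescaling (0.0807) and in the variance model without trend (0.0681). That of Cdh4 was also lost without control-labelled replicate 2 (0.0779) and with a pseudocount of 0.1 (0.0639). Cdh4 reached the mean of 1 FPKM only through the Sox2-labelled libraries, so its count among 7 supports nothing about the list. Cdh3 has 16 exons and lies on chromosome 8 at 106510852 to 106556911 of mm10, plus strand.

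Bcam was abundant in every library and did not differ past the test. It stood at 695 and 704 FPKM in the Sox2-labelled libraries and at 455 and 734 FPKM in the control-labelled ones, so that control-labelled replicate 1 was the low library and the other 3 lay close together. The groups overlapped, and the highest library exceeded the lowest 1.62-fold. The log2 difference of 0.28 (SE 0.35, 95% interval -0.50 to 1.05, limma adjusted p = 0.653) was -0.070 without control-labelled replicate 1. Under rescaling it was 0.63 (median-of-ratios) and 0.86 (quantile) and did not pass. Bcam lies on chromosome 7 at 19756138 to 19770532 of mm10, minus strand. Its ligand in basement membranes is the laminin chain Lama5, whose levels of 101 and 138 FPKM against 95.3 and 64.7 FPKM did not differ past the test. Of the 4 genes of the laminins that contain Lama5, Lamb2 was higher (log2 difference 2.00, SE 0.32, limma adjusted p = 0.00369, or 0.0564 without Sox2-labelled replicate 2) and 3 did not pass. Msln, a mesothelial and epithelial surface antigen, made up most of the summed mesothelial markers, which were 95.2 and 88.7 FPKM in the Sox2-labelled libraries and 39.5 and 63 FPKM in the control-labelled ones. Of the other mesothelial markers, Upk3b stood at 5.16 and 0.699 against 2.70 and 0.113 FPKM and did not pass, Upk1b was 0.231 to 1.63 FPKM, and Wt1 was at most 0.184 FPKM.

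Ngfr was at the floor. It stood at 0.230 and 0.0702 FPKM in the Sox2-labelled libraries and at 0.0655 and 0.0809 FPKM in the control-labelled ones, and the deposited bounds of the last 3 values overlap. It was not tested, and with no filter the log2 difference was 0.10 (SE 0.08, limma adjusted p = 0.558). The Schwann cell regulator Sox10, from a cell type rich in Ngfr, did not exceed 0.051 FPKM. Ngfr has 6 exons and lies on chromosome 11 at 95568821 to 95587698 of mm10, minus strand. Of 9 ligands and coreceptors of p75, 5 were tested, of which 2 were higher and the other 3 did not pass. Among those 3, Ntf3 lay on the lower side without overlap between the groups. It stood at 0.412 and 0.0572 FPKM against 1.10 and 2.94 FPKM (log2 difference -1.24, SE 0.43, limma adjusted p = 0.0832). The neurotrophin Bdnf stood at 2.41 and 4.96 FPKM against 0.0567 and 0.0733 FPKM (log2 difference 2.08, SE 0.41, limma adjusted p = 0.00999). Sort1, the sorting receptor that pairs with p75, stood at 81.4 and 74.0 FPKM against 32.5 and 19.98 FPKM (log2 difference 1.57, SE 0.33, limma adjusted p = 0.0136). Both lost their calls without Sox2-labelled replicate 2 (limma adjusted p = 0.0928 and 0.107), and Sort1 without replicate 1 as well (0.0833). The receptor tyrosine kinase genes Ntrk2 and Ntrk3 stayed at or below 0.369 FPKM. Bdnf reached the mean of 1 FPKM only through the Sox2-labelled libraries, and Ntf3 only through the control-labelled ones. The counts among the 5 tested genes therefore support nothing about the list.

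Icam1 was the gene of the 8 that differed against Trp63 and Dapl1. It stood at 343 and 290.7 FPKM in the Sox2-labelled libraries and at 71.8 and 18.7 FPKM in the control-labelled ones. The groups did not overlap, and control-labelled replicate 1 was 3.84-fold above replicate 2. The log2 difference was 3.06 (SE 0.50, limma adjusted p = 0.00400), with means of 317 ± 37.1 and 45.3 ± 37.6 FPKM (SD, n = 2 each). The ratio of those means was 7.001, or 17.0 and 4.41 without control-labelled replicate 1 or 2. The call held with any 1 library left out, at a limma adjusted p of at most 0.0378. Icam1 has 7 exons and lies on chromosome 9 at 21015960 to 21028796 of mm10 in the authors' tables, plus strand. Its promoter is shown above with the NF-kB site through which inflammatory signals are known to act.

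Levels of Icam1 ran alongside markers of several cell types, some of them known to express it. The 8 AT1 markers summed to 6077 and 6941 FPKM in the Sox2-labelled libraries and to 1132 and 609 FPKM in the control-labelled ones, with 7 higher and 1 not passed. All 8 AT2 markers were higher (sums of 25232 and 17634 against 5992 and 977 FPKM). The 7 endothelial markers summed to 108 and 48.9 against 33.5 and 12.0 FPKM, with 2 higher and 5 not passed. Leukocyte markers without Lyz2, which AT2 cells also make, summed to 44.1 and 30.7 against 14.4 and 6.22 FPKM, with Csf1r higher and Ptprc and Cd68 not passed. Csf1r made up 27.7 and 25.2 against 3.02 and 1.03 FPKM of those sums, the other 2 overlapped between the groups, and Cd3e was at most 0.310 FPKM. None of the defining AT1, AT2 or endothelial markers was listed at 0. Club markers also had higher sums in the Sox2-labelled libraries (3527 and 6018 against 1944 and 2156 FPKM), with 1 higher and 2 not passed. So did ciliated markers (331 and 334 against 135 and 70.4 FPKM), with 1 higher and 3 not passed. The pan-epithelial sum went the other way. The part of each cell type in the level of Icam1 was not tested.

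**Figure D2:**
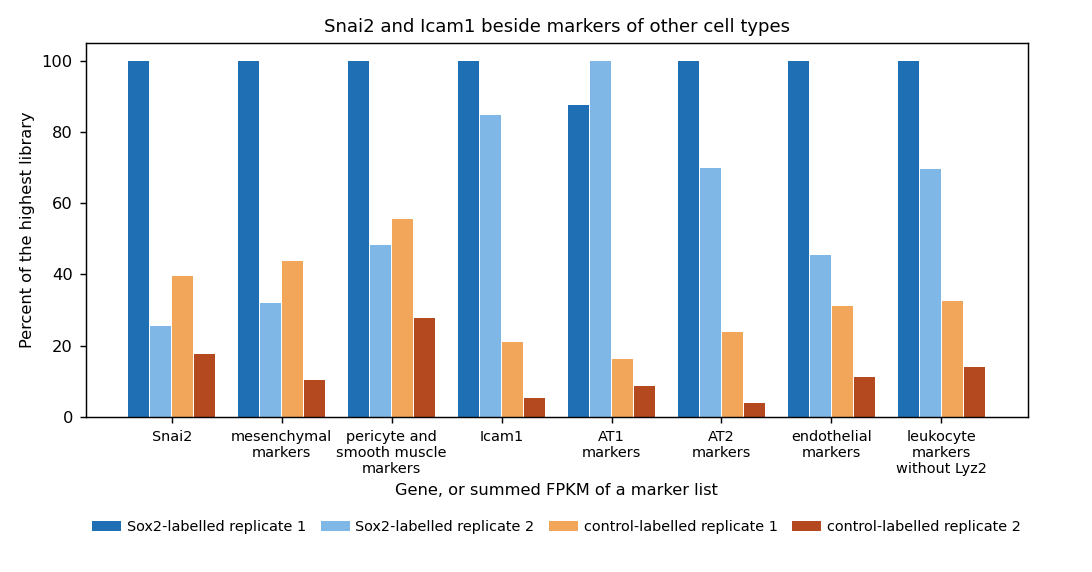
Level in each library as a percent of the highest library (bars start at 0), for Snai2 and Icam1 and for the summed FPKM of marker lists. Snai2 follows the order of the mesenchymal and of the pericyte and smooth muscle sums, with Sox2-labelled replicate 1 highest and control-labelled replicate 1 next; Icam1 is high in both Sox2-labelled libraries, as are the AT1 and AT2 sums.

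The genes most like Icam1 over the 4 libraries were Batf (distance 0.038), Lyz2 (0.19) and Nrp1 (0.20). Batf, for example, stood at 42.1 and 34.5 FPKM against 8.14 and 1.47 FPKM. Among the genes that tether Icam1 to the cytoskeleton or bind it, 7 of 8 were tested, 1 was higher and 6 did not pass. The higher one was moesin (Msn), a linker of membrane proteins to actin, at 318 and 296 FPKM against 173 and 65.2 FPKM (log2 difference 1.52, SE 0.42, limma adjusted p = 0.0399). Msn did not pass without Sox2-labelled replicate 1 (limma adjusted p = 0.132) or 2 (0.182), and without control-labelled replicate 2 (log2 difference 0.83, limma adjusted p = 0.246). Nor did it with a minimum mean of 5 FPKM (0.0502) and without a variance trend (0.0633). Ezrin (Ezr), at 204 and 203 FPKM against 479 and 343 FPKM, did not pass. Of 10 tested genes of NF-kB feedback, the pathway that classically induces Icam1, 1 was higher and 9 did not pass, with a median difference of 0.39. The count higher was 2 under median-of-ratios rescaling and under quantile normalization, 3 without control-labelled replicate 1 and 0 without any other single library. Nfkbia, the inhibitor induced by NF-kB, was 138 and 79.9 FPKM against 104 and 64.9 FPKM. The one past the threshold was the chemokine gene Cxcl1 (log2 difference 1.80, SE 0.52, limma adjusted p = 0.0473). It lost that call with any library left out except control-labelled replicate 1, at limma adjusted p-values of 0.206 to 0.257, and its difference was 0.95 without control-labelled replicate 2. The call ended as well with a minimum mean of 5 FPKM (0.0616) and without a variance trend (0.0530).

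**Figure D3:**
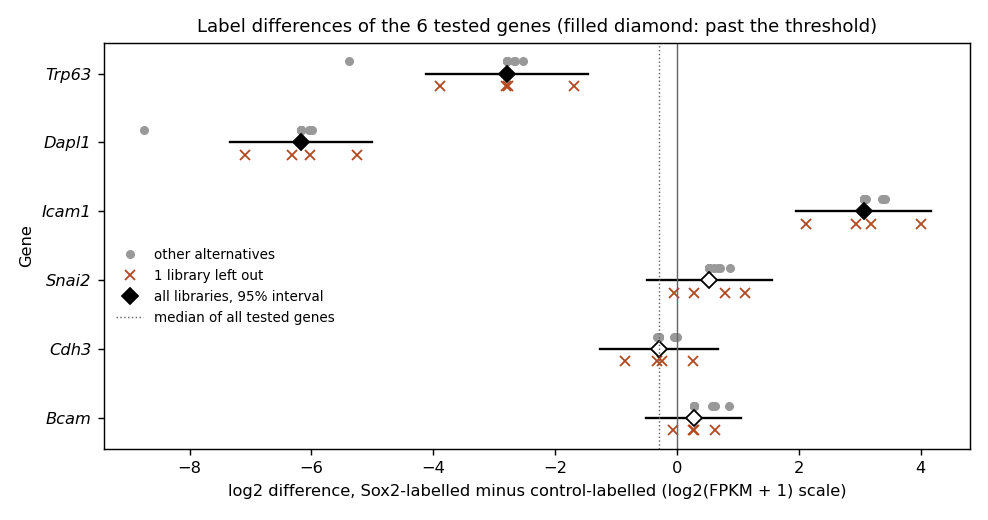
Log2 difference (labelled Sox2 minus labelled control, log2(FPKM + 1) scale) of the 6 tested genes with its 95% interval, filled where past the threshold; grey points are alternative settings (the far left one of Trp63 and of Dapl1 has a pseudocount of 0.1) and crosses leave out 1 library. Trp63 and Dapl1 stay below 0 and Icam1 above 0 in each fit, while Snai2, Cdh3 and Bcam have values on both sides of 0.

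Other genes of basal cells passed in both directions. Of 16 on the list, 12 were tested, 4 were lower in the Sox2-labelled libraries, 2 were higher and 6 did not pass, and the median difference was -0.71. Under median-of-ratios rescaling and quantile normalization 3 were higher and 2 lower, and without either Sox2-labelled replicate 2 were lower. Adh7, a retinol dehydrogenase of upper airway and stomach epithelium, stood at 0.0471 and 0.0341 FPKM in the Sox2-labelled libraries and at 15.8 and 61.5 FPKM in the control-labelled ones (log2 difference -4.96, SE 0.55, limma adjusted p = 6.51e-04). Adh7 reached the mean of 1 FPKM only through the control-labelled libraries, so the count lower and the median support nothing about the list. Of the defining keratins of basal cells, Krt5 was listed at 0 in both Sox2-labelled libraries and stood at 0.00602 FPKM in control-labelled replicate 1 and at 0.686 FPKM in replicate 2, where its deposited bounds of 0.415 to 0.957 FPKM lay clear of the other 3 libraries. Krt14 did not exceed 0.101 FPKM. Krt15 was 1.43 to 1.75 FPKM and did not pass. The higher genes were the growth factor receptor gene Egfr, at 22.0 and 28.9 FPKM against 4.50 and 2.22 FPKM (log2 difference 2.64, SE 0.39, limma adjusted p = 0.00260), and Pdpn (2.19, SE 0.36, limma adjusted p = 0.00400). Pdpn is a marker of AT1 cells as well. Egfr lost its call without Sox2-labelled replicate 2 (limma adjusted p = 0.0734).

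**Figure D4:**
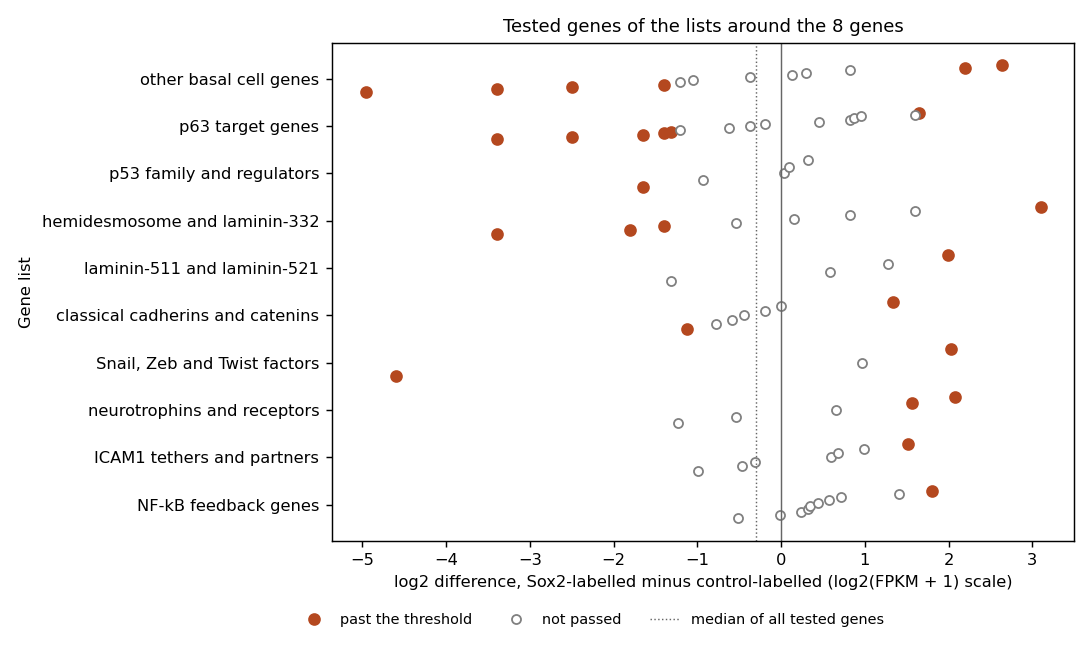
Log2 difference (labelled Sox2 minus labelled control, log2(FPKM + 1) scale) of every tested gene in 10 lists around the 8 genes; each point is a gene, filled where past the threshold, and a gene on several lists appears on each. Passing genes lie on both sides of 0 among basal cell genes, p63 targets and hemidesmosome genes, and Twist1 lies at -4.60 and Adh7 at -4.96.

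The control-labelled libraries differed from each other in these genes. Replicate 2 held more Trp63 (6.08-fold), Dapl1 (3.61-fold), Col17a1 (19.3-fold), Cdh3 (2.46-fold) and Bcam (1.62-fold) than replicate 1, and less Icam1 and Snai2 (0.448-fold). Of the 6 tested identity genes 4 were higher in replicate 2, and of 12 tested basal cell genes 6 were, where 27.2% of all tested genes were. Trp63, Dapl1 and Adh7 passed the filter on the mean only through the control-labelled libraries, so these counts support nothing about the sets. Sox2 was 1.58-fold higher in replicate 2, and all 8 AT1 markers were lower there, Ager at 157 against 496 FPKM. Small RNA genes held 50.9% of the summed FPKM of replicate 2, against 5.76% to 19.3% in the other 3 libraries, and their part in these differences was not tested.

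**Figure D5:**
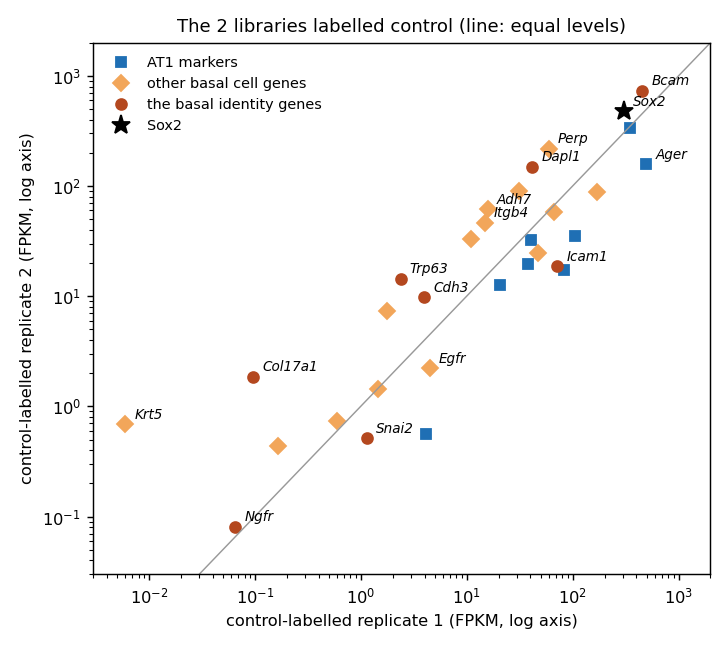
Level in control-labelled replicate 2 against replicate 1 (FPKM, both axes logarithmic; genes at 0 in either are left out) for the identity genes, other basal cell genes, AT1 markers and Sox2. Trp63, Dapl1, Col17a1, Cdh3, Adh7, Itgb4 and Perp lie above the line of equal levels, and Icam1 and the AT1 markers below it.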

How the data were processed

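RNA of 4 sorted-cell libraries was sequenced, 2 per label. The authors deposited FPKM values per gene with lower and upper bounds, per the file headers. TopHat2, Bowtie2, Cufflinks and Cuffdiff with build mm10 are named in the submitters' processing notes. Their versions, the annotation and the strandedness: not given in the sources used here. Without counts the absolute depth is unknown. Bounds spanned a median of ±7.81% to ±12.4% of the value for genes of at least 1 FPKM. A table of group values with no label for its columns was not used.

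Tables were joined by symbol, adding entries at several positions (267 symbols, none a gene named here). Rn45s, marked as failed, was left out. Genes whose mean reached 1 FPKM were tested on log2(FPKM + 1), a scale that shrinks differences of low genes, with limma 3.58.1 (R 4.3.3; lmFit, eBayes with trend; 2 residual degrees of freedom), two-sided. The code was tested on simulated data. An exact test of 2 against 2 libraries cannot go below p = 0.333 and was not run. Named genes are the 8, up to 3 passing genes of largest difference per list (otherwise the 2 most abundant), and the 3 nearest genes by profile; the text prints a part. Itga6, Trp73, Twist2, Snai3, Zeb1, Zeb2, Cdh1, Lama5, Wt1, Upk1b, Upk3b, Csf1r, Ptprc, Cd68, Cd3e, Sox10, Ntf3, Ntrk2, Ntrk3, Ezr, Nfkbia and the low keratins were added after their values were seen. Members and lists were chosen with earlier results of these data known. Alternatives were other pseudocounts, filters, scalings and variance models, a replicate block, and leaving out each library.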

Additional observations from a re-analysis of the deposited data

How the results depend on the processing

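Icam1 and Dapl1 kept their direction and their limma calls in 12 of 13 alternatives each, and lost them with no filter on low values (limma adjusted p = 0.104 and 0.0788), as did Trp63 (0.144). That setting tested 18390 genes and gave 0 higher and 3 lower genes in limma (Sox2, Pla2g4c and Mir684-1), with 1251 and 2618 at an unadjusted p under 0.05. It gave 0 of the identity genes higher and 0 lower, with Dapl1, Icam1 and Trp63 at an unadjusted p of 2.01e-04, 0.00467 and 0.0143, and it ended the calls of all 21 genes named from the lists around them. Of those 21, Adh7, Itgb4, Pdpn and Twist1 passed in each other alternative.

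The count of identity genes lower was 1 in place of 2 with a minimum mean of 5 FPKM, which leaves out Trp63, under median-of-ratios rescaling and under quantile normalization. With 1 library left out it ranged from 1 to 2, and the count higher stayed at 1. Over all genes, 964 were higher under median-of-ratios rescaling and 980 under quantile normalization, which made 58.4% and 54.2% of calls higher in place of 34.1%. The median of all tested genes was then 0.00017 and -0.041. Scaling to the total without small RNA genes, chosen after seeing the data, gave 885 higher genes (53.7% of calls) and kept the calls of Trp63, Dapl1 and Icam1. With 1 library left out, 119 to 837 genes were higher and 115 to 1312 lower; the 506 higher and 976 lower genes became 119 and 115 without Sox2-labelled replicate 2, 173 and 422 without Sox2-labelled replicate 1, and 837 higher without control-labelled replicate 1. A lone library was then assumed to vary like the other group.

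The replicate block gave 1142 higher and 2730 lower genes and ended no call of a gene named here. The labels tie no litter or day to a replicate number, and deviations of same-numbered libraries correlated at r = 0.23 across genes, so the numbers were not taken as pairs. Of values that did not pass, with 1 library left out Snai2 ranged from -0.050 (without Sox2-labelled replicate 1) to 1.12, Bcam from -0.070 (without control-labelled replicate 1) to 0.62, and Cdh3 from -0.85 to 0.27 (without control-labelled replicate 2). The cause of these changes was not tested. Low values limit what can be said of Ngfr and Col17a1, whose deposited bounds are wide.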
